A study of Gallus gallus and Dromaius novaehollandiae and Alligator mississippiensis with 60 samples.

Results

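Reticulate and scutate scales of emu were compared in 7 epidermis libraries, 3 of reticulate scale and 4 of scutate scale, out of 60 libraries in the series and 18 from emu. The libraries were chosen by their labels alone. The study measured RNA in the epidermis of embryonic skin appendages of chicken, emu and alligator, and in chicken dermis. Reticulate scale gave 1 library at the placode stage (Hamburger and Hamilton stage 39) and 2 at morphogenesis (stage 40), and scutate scale gave 2 at placode (stage 37) and 2 at morphogenesis (stage 40). The placode is the early thickening of the epidermis from which an appendage forms, and morphogenesis is the phase in which it takes its shape. All 7 came from incubated emu eggs held at 35.5 °C, with no treatment, genotype or day of age in the labels, and the number in each title, read as the specimen, differed among the 7. Their descriptions give lane number 1 for the reticulate libraries and lane number 2 for the scutate libraries, so lane and scale type cannot be told apart in emu.

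Scutate scales cover the front of the foot and toes of birds as large plates with an outer and an inner face and a free edge that overlaps the next. Reticulate scales cover the sole and toe pads, are small and radially symmetric, and do not overlap. In chicken, the scutate field is known to form from distinct placodes, whereas reticulate scales arise as rounded elevations, and the outer layers of both later harden with keratins. In the deposited table genes carry chicken identifiers only. None of its 17889 identifiers was paired with a symbol here, so no gene below is given a name or function, and the epidermal and other cell type markers could not be looked up by symbol.

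The 7 libraries had total values between 549887 and 549902 TPM over 8749 genes with an emu value. TPM is a transcript abundance corrected for gene length and expressed against the sum of its library, and it keeps no read depth. Between 6669 and 6748 genes reached 1 TPM, and the 10 most abundant genes held 7.84% to 8.98% of the summed values of a library over these 8749 genes. Log2 values correlated at 0.98 to 0.991 among the 4 scutate libraries, across both of their stages, and at 0.987 between both stage 40 reticulate libraries. The reticulate placode library stood apart from all others. It correlated at 0.945 and 0.947 with the other reticulate libraries and at 0.942 to 0.949 with the scutate libraries, so it was no nearer to its own scale type. The count of calls, the list medians and the named genes of the bird comparison are also given without it, and the stage 40 contrast does not contain it. The counts of separated genes, the appendage ranks and the chicken shares are given with it only.

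As a check of the labelled layer, genes at least 4-fold higher in chicken epidermis than in chicken dermis of feather and claw were summed. The summed level of the 217 measured genes was 28827 TPM in the reticulate placode library and 34290 and 35667 TPM at stage 40, against 20724 to 22078 TPM in the 4 scutate libraries, with no overlap between the scales. Between 205 and 213 of the 217 reached 1 TPM in each library, as did 336 to 356 of 393 measured dermis-enriched genes. Both lists were limited to genes at 1 TPM or more in at least 2 of these 7 libraries. High counts follow in part from that filter and are not read as a check of the layer. The 393 measured genes enriched in chicken dermis summed to 20958 TPM in the reticulate placode library and to 11661 to 14591 TPM in the other 6. Of the excess of that library over the scutate placodes, 88.3% lay in 5 genes. The median level of the dermis genes was 7.45 TPM in that library, inside the range of 7.26 to 8.56 TPM of the other 6.

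Across all 7 libraries, with stage as a term, 656 genes were called toward reticulate scale and 853 toward scutate scale, which is 9.45% and 12.3% of the 6943 genes tested (limma on log2(TPM + 1), Benjamini-Hochberg adjusted p under 0.05). Differences are reticulate minus scutate of log2(TPM + 1), and the added 1 shrinks those of genes with low values. A 2-fold difference was reached by 233 genes on the reticulate and 208 on the scutate side, a 4-fold difference by 47 and 40, and an 8-fold difference by 9 and 7. Together the genes called higher in reticulate scale held 12.6% of the summed values of the reticulate placode library. They held 15.4% and 15.7% of those of the stage 40 reticulate libraries, against 7.01% to 8.16% of those of the scutate libraries. The genes called higher in scutate scale held 16.5% to 17.4% of those of the scutate libraries and 11.6% to 12.5% of those of the reticulate libraries. Both sets were called in these same libraries, so the direction of these shares follows from the selection and only their size is described. After median-of-ratios rescaling the split was 792 to 685, so which scale had more higher genes depended on the scaling. In bulk tissue, more cells of a type and more RNA per cell cannot be told apart.

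All 3 reticulate libraries lay above all 4 scutate libraries in 908 genes (13.1% of those tested) and below them in 1317 genes (19%). Of the called genes, 588 of the 656 and 792 of the 853 were separated in this way. Leaving out 1 library at a time gave between 768 and 2003 calls. The count was 785 and 768 without scutate stage 40 replicate 1 and 2, 914 and 800 without reticulate stage 40 replicate 1 and 2, and 2003 without the reticulate placode library. A set of 643 genes, 306 higher in reticulate and 337 higher in scutate scale, was called in the same direction in all 7 of these fits and in the full one. The fit without the reticulate placode library takes the scale difference from the stage 40 libraries alone. List medians given without that library are therefore those of stage 40, as is the emu side of the bird comparison.

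The naming rule admitted only called genes whose reticulate libraries all lay on the same side of all scutate libraries. Among the genes that it selected, ENSGALG00000002557 had the largest difference toward reticulate scale. It stood at 31.3 TPM in the reticulate placode library and at 103.6 and 68.9 TPM in the stage 40 reticulate libraries, and at 0.883, 0.764, 1.34 and 1.35 TPM in the 4 scutate libraries. The reticulate libraries averaged 67.9 ± 36.1 TPM (SD, n = 3) and the scutate libraries 1.08 ± 0.304 TPM (n = 4), a log2 difference of 4.77 (SE 0.25, adjusted p = 0.00013). The gene was low in every other emu epidermis library, at 0.264 to 0.813 TPM in 3 claw libraries and at 0.363 to 2.26 TPM in 8 feather libraries (median 1.44). In chicken all 20 epidermis libraries lay under 1 TPM, so no chicken difference was tested for it. In the 10 chicken dermis libraries it held 9.65 to 83.6 TPM, and it is on the list of dermis-enriched genes. That list as a whole summed to 11661 and 12942 TPM in the stage 40 reticulate libraries and to 12093 and 13610 TPM in the scutate libraries of that stage, with overlapping ranges. The part of dermal RNA in the difference was not tested.

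ENSGALG00000020671 was the other reticulate-high gene named by this rule. It stood at 90.6 TPM in the reticulate placode library and at 781.1 and 589.3 TPM at stage 40, and at 1.64 and 6.34 TPM in the scutate placodes and 24.8 and 31.9 TPM in scutate scale at stage 40. The groups did not overlap, which the naming rule requires, and both scales were higher at stage 40 than at placode. Its log2 difference was 4.48 (SE 0.33, adjusted p = 0.00061). Emu claw stood at 1.51 to 4.21 TPM and emu feather at 2.09 to 6.36 TPM (median 3.66). In chicken the reticulate libraries stood at 0.79 and 0.43 TPM at placode and at 3.28 and 15.8 TPM at stage 40, while 3 of the 4 scutate libraries were listed at 0 and the other at 0.0781 TPM. The chicken log2 difference was 1.85 (SE 0.58, adjusted p = 0.12). Chicken claw epidermis held 0.231 and 1.87 TPM at placode and 21.1 and 21.7 TPM at morphogenesis, and chicken feather epidermis 0 to 0.126 TPM. At morphogenesis chicken claw thus lay above every chicken reticulate library.

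ENSGALG00000016584 had the largest difference toward scutate scale under the same rule, with 247.8 and 257.7 TPM in the scutate placodes and 57.4 and 95.7 TPM in scutate scale at stage 40. The reticulate libraries held 14.9 TPM at placode and 1.04 and 1.09 TPM at stage 40, all below the lowest scutate library as the rule requires. The log2 difference was -4.71 (SE 0.28, adjusted p = 0.00028). Feather libraries were higher still, from 372.3 to 866 TPM (median 668.4), and claw libraries were low, from 0.543 to 8.18 TPM. In emu the level therefore ran from feather through scutate scale down to reticulate scale and claw, whose ranges overlapped.

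ENSGALG00000016803 stood at 119.1, 105.3, 151.9 and 93.2 TPM in the scutate libraries and at 8.67, 3.29 and 2.69 TPM in the reticulate libraries. The scutate libraries were the highest of all emu epidermis, since feather lay between 16.9 and 61.7 TPM (median 47.3) and claw between 12.9 and 18.9 TPM. The log2 difference was -4.37 (SE 0.3, adjusted p = 0.00052). Chicken scutate libraries ranged from 1.25 to 41.9 TPM and reticulate libraries from 2.31 to 18.2 TPM, and the difference there was -0.62 (SE 0.47, adjusted p = 0.51). Emu minus chicken was -3.75 (SE 0.65, adjusted p = 0.0049). Over all 24 genes that the rule selected, the log2 differences ran from 2.87 to 4.77 on the reticulate side and from -2.58 to -4.71 on the scutate side.

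**Figure D1:**
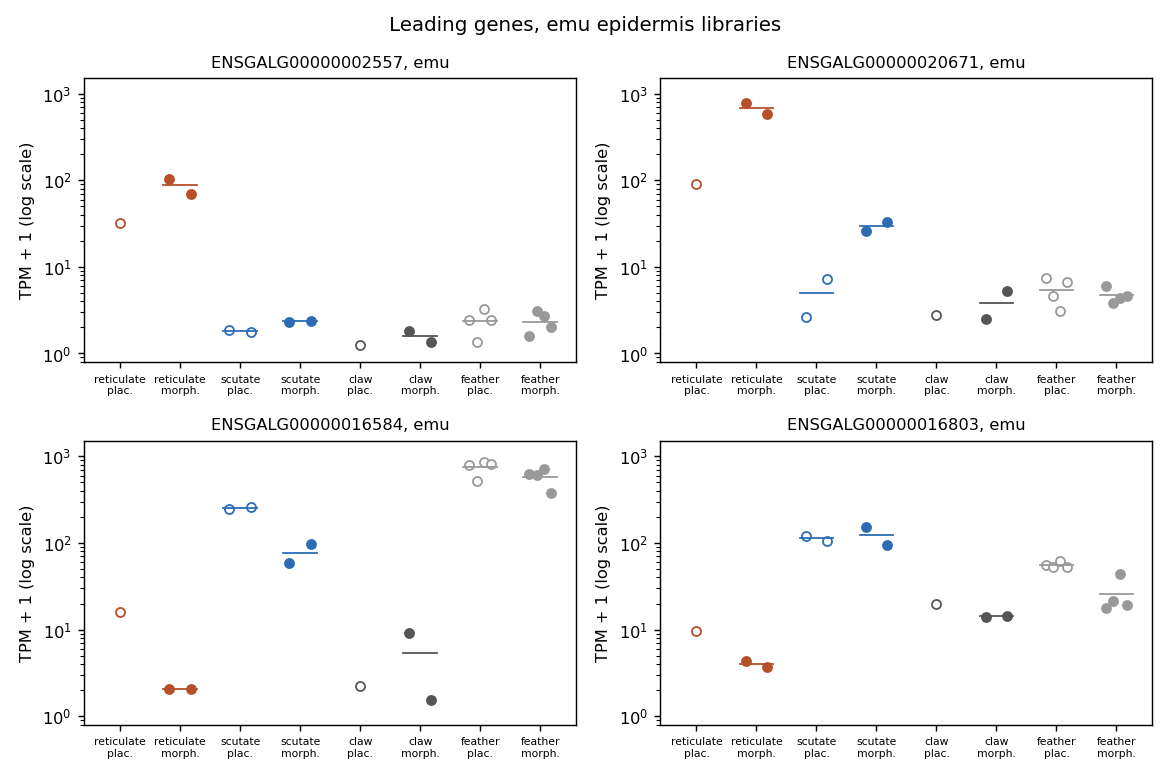
TPM + 1 on a log axis in each emu epidermis library (points) for 4 genes, by appendage and stage, with open points for placode, filled points for morphogenesis and lines at group means of the plotted values. ENSGALG00000002557 and ENSGALG00000020671 are highest in the 3 reticulate libraries, and ENSGALG00000016584 and ENSGALG00000016803 are higher in scutate scale than in reticulate scale.

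The changed genes were then read in the other emu appendages. Claw against feather was tested in 3 claw and 8 feather libraries that the scale comparison did not use. Title numbers 11 and 16, read as specimens, stand on a feather or claw library as well as on a scutate library. Under each number the scutate library is labelled with the later stage, so whether a number stands for 1 embryo is unsettled. The test gave a list of 466 measured genes at least 2-fold higher in claw and a list of 915 at least 2-fold higher in feather. Reticulate scale was higher in 192 of the claw-high genes (41.2%) and scutate scale in 27 (5.79%), and the median difference was 0.488. Of the feather-high genes, 247 (27%) were called toward scutate scale and 57 (6.23%) toward reticulate scale, with a median of -0.268. Over all genes tested 9.45% were called toward reticulate and 12.3% toward scutate scale, with a median of -0.049. Without the reticulate placode library the medians were 0.59 for the claw-high and -0.441 for the feather-high genes, beside -0.102 for all genes tested. At placode alone the claw-high median was 0.272, with 105 genes (22.5%) called toward reticulate and 33 (7.08%) toward scutate scale. The feather-high median there was -0.001, with 91 (9.95%) and 111 (12.1%). Over all genes at placode the median was 0.024, with 7.88% and 6.14% called. Counted the other way, 315 of 650 reticulate-high genes (48.5%) were called higher in claw than in feather and 127 lower, against 60 and 571 of 850 scutate-high genes and 1124 and 3205 of the 6889 genes in that fit. All of these are counts beside a background, with no set test. By their labels the claw libraries were later in stage than the feather libraries both at placode and at morphogenesis, and the claw placode library was of the same stage as the feather morphogenesis libraries.

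By mean level over the 4 emu appendage types, feather with both tracts together and stages weighted equally, 72 of the 233 genes at least 2-fold higher in reticulate scale were highest in claw, 9 were highest in feather and the rest in reticulate scale itself. Of the 208 genes at least 2-fold higher in scutate scale, 119 were highest in scutate scale, 69 in feather and 20 in claw. Over all 6943 genes, 1734 were highest in reticulate scale, 1119 in scutate scale, 1473 in claw and 2617 in feather. At the low end, 108 of the 233 were lowest in feather, 63 in scutate scale and 62 in claw, while 96 of the 208 were lowest in reticulate scale and 104 in claw. Over all 6943 genes, 3552 were lowest in claw, 1517 in reticulate scale, 1036 in feather and 838 in scutate scale. The genes were selected in the same reticulate and scutate libraries that are ranked here. By that selection 0 of the 208 were lowest in scutate scale, and 0 of the 233 were highest in scutate or lowest in reticulate scale. The shares over all genes leave every place open, so they are not a like background for these ranks.

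Genes that change with stage in chicken foot scales were read in the same way. Those at least 2-fold higher at morphogenesis than at placode over the chicken reticulate and scutate libraries numbered 180 with a tested emu value. Emu reticulate scale was higher in 81 (45%) of them and scutate scale in 12 (6.67%), with a median difference of 0.489. Genes at least 2-fold lower at chicken morphogenesis went the other way in 62 of 242 (25.6%), with 14 higher in emu reticulate scale and a median of -0.241. Beside these stand 9.45% called toward reticulate and 12.3% toward scutate scale over all genes tested, with a median of -0.049. The direction was also seen where both emu scales came from stage 40, with medians of 0.661 and -0.393 beside -0.102 for all genes. At placode, where the emu reticulate library was taken at stage 39 and the scutate libraries at stage 37, the medians were 0.332 and -0.019 beside 0.024 for all genes. Of the 180 genes, 73 also belonged to the emu claw-high list and 45 to the chicken epidermis list.

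Genes of the chicken layer lists differed in what they showed. Of the 217 epidermis-enriched genes, reticulate scale was higher in 75 (34.6%) and scutate scale in 23 (10.6%), with a median difference of 0.311. Of the 393 dermis-enriched genes, 67 (17%) were called toward reticulate and 80 (20.4%) toward scutate scale. Both shares exceeded the background of 9.45% and 12.3%. The median, -0.018, lay near 0 and was 0.034 after median-of-ratios rescaling and 0.021 after quantile normalization. The median of all genes moved too, from -0.049 to 0.001 and -0.031, and the list median lay above it in each setting. Without the reticulate placode library the medians were 0.326 for the epidermis genes and -0.099 for the dermis genes, beside -0.102 for all genes tested. These lists were made from chicken feather and claw, and 72 of the 217 epidermis genes were also on the emu claw-high list. The part of other cell layers in the scale difference was not tested.

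**Figure D2:**
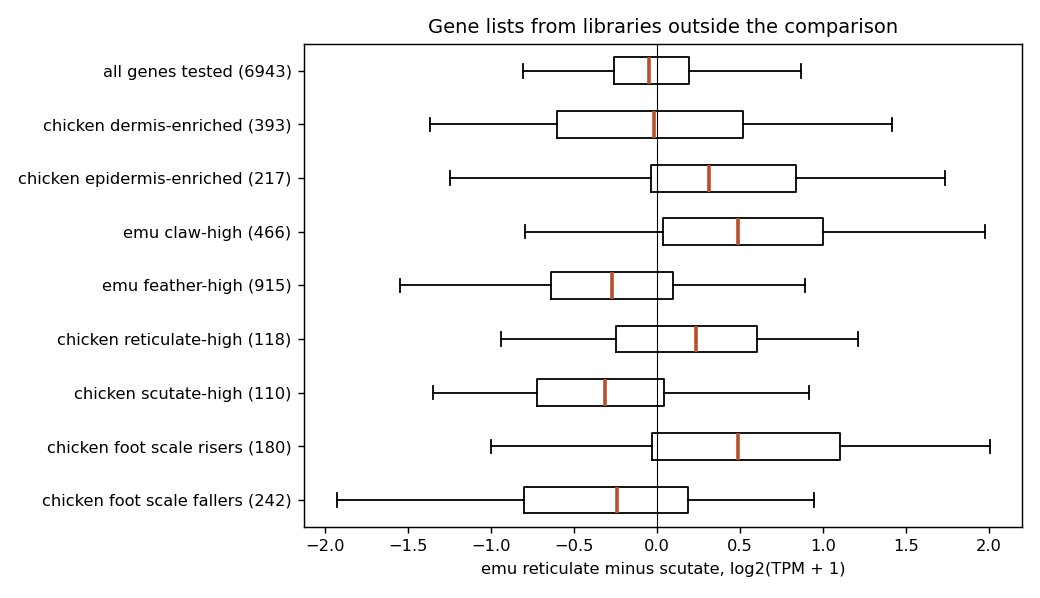
Horizontal axis, emu reticulate minus scutate difference in log2(TPM + 1); each box spans the middle 50% of the genes of a list, the coloured line is the median and whiskers run from the 5th to the 95th percentile, with the number of genes in parentheses. Lists were defined in libraries outside the emu scale comparison; the claw-high and foot scale riser lists have the highest medians, 0.488 and 0.489, against -0.049 for all genes tested.

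At stage 40, where both scales were of equal stage by their labels, 747 genes were called toward reticulate scale and 1242 toward scutate scale (10.8% and 17.9% of those tested). The median of all genes was -0.102 there, and median-of-ratios rescaling moved it to -0.004 and the split to 993 and 842. Before rescaling, 294 of the 747 and 349 of the 1242 differed 2-fold or more. Without scutate replicate 1, scutate replicate 2 or reticulate replicate 2 of that stage, 1109, 853 and 1130 genes were called. Under 1 TPM in both scutate libraries and at 5 TPM or more in both reticulate libraries were 9 genes, and 4 genes showed the reverse pattern.

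At placode 547 genes were called toward reticulate scale and 426 toward scutate scale (7.88% and 6.14%). This contrast sets 1 library of stage 39 against 2 of stage 37, the lone library is assumed to vary like the others, and without scutate placode replicate 1 the count fell from 973 to 603. The summed dermis list was also higher in the reticulate placode library, as given above. Of the 393 dermis genes, 51 (13%) were called higher and 52 (13.2%) lower at placode. Both shares exceeded the 7.88% and 6.14% of all genes tested. Whether the dermis genes take part in the placode differences was not tested.

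The stages share no library, and their differences correlated at r = 0.551 and rho = 0.444 across the 6943 genes, which are not independent replicates, while lane and scale run together at both. Of the 747 genes higher in reticulate scale at stage 40, 84.7% had a positive difference at placode, and 257 were called higher there and 8 lower. Of the 1242 genes higher in scutate scale at stage 40, 75% had a negative difference at placode, with 271 called in the same and 22 in the opposite direction. Over all genes 64.6% had equal signs. The genes at least 2-fold higher in reticulate scale at stage 40 had a median difference of 1.45 there and 0.826 at placode, and those at least 2-fold higher in scutate scale -1.32 and -0.631. Selection by the stage 40 difference favours the larger medians at that stage, so they are not read as smaller differences at placode.

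A test of the difference between the stages called 273 genes. The reticulate minus scutate value was more positive at stage 40 in 98 (1.41%) and at placode in 175 (2.52%). In 51 of the 98 and 131 of the 175 the scale difference had opposite signs at the stages, which selection by this test favours. Over all genes 64.6% had equal signs. The split of 98 to 175 became 130 to 92 under median-of-ratios rescaling, which moved the median of all genes from -0.119 to 0. Under quantile normalization it became 108 to 93. Both rescalings reversed which stage had the more positive value in more genes. The count fell to 77 and 49 without scutate stage 40 replicate 1 and 2. The reticulate placode library is part of every value here and cannot be left out. The genes of this test named below also had to have all reticulate libraries on the same side of all scutate libraries. Genes with opposite signs at the stages could therefore not be named, although they were 51 of the 98 and 131 of the 175.

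**Figure D3:**
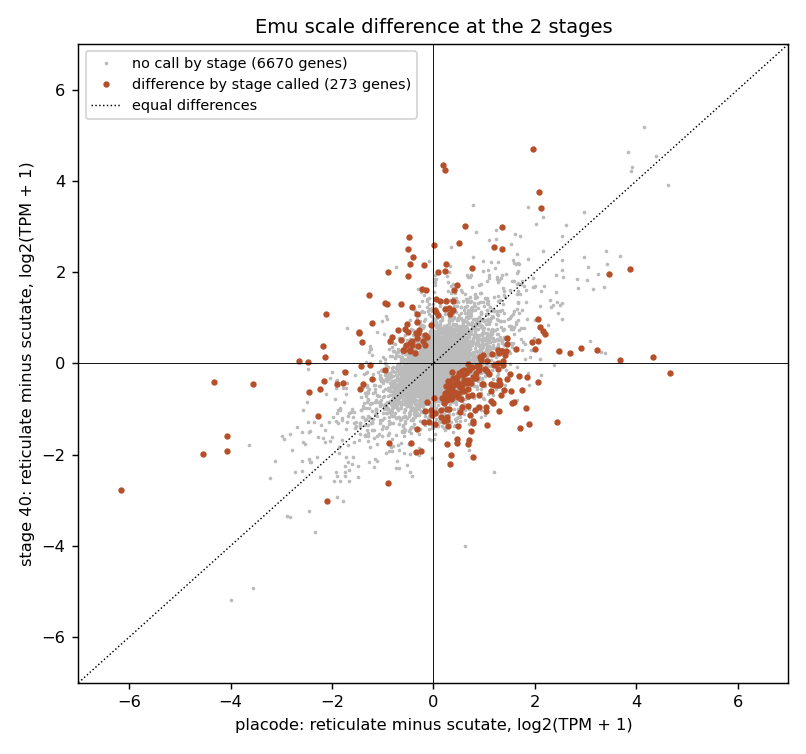
Each point is a gene, with its reticulate minus scutate difference in log2(TPM + 1) at placode (horizontal) and at stage 40 (vertical) in separate emu libraries; the dotted line marks equal differences. Genes whose difference changed with stage (273, coloured) lie away from the line, 131 of them in the lower right quadrant, positive at placode and negative at stage 40.

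ENSGALG00000004969 was high in scutate scale at both stages, at 78.6 and 71.7 TPM at placode and 96.2 and 94.6 TPM at stage 40. The reticulate placode library held 0.0661 TPM and the stage 40 reticulate libraries 12.7 and 13.3 TPM. The log2 difference was -6.16 at placode (SE 0.14, adjusted p = 5.5e-07) and -2.78 at stage 40 (SE 0.11, adjusted p = 1.9e-05), and these differed by 3.38 (SE 0.17, adjusted p = 0.00045). The size depended on the pseudocount, at 5.96 with 0.1 and 1.5 with 5 in place of 1, since the reticulate placode value lies far below 1 TPM, and it rests on that library. Scutate scale was the highest emu appendage for this gene, since feather held 2.1 to 4.88 TPM (median 2.59) and claw 0.404 to 5.33 TPM. In chicken all 4 scutate libraries, at 2.7, 10.3, 5.98 and 12.4 TPM, lay above all 4 reticulate libraries, at 0.568, 1.38, 0.188 and 0.344 TPM. The chicken log2 difference was -2.34 (SE 0.43, adjusted p = 0.026). The gene is on the dermis-enriched list from chicken feather and claw, while in chicken scutate dermis it held 0.365 and 0.848 TPM.

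For ENSGALG00000008834 the placode value rests on the 1 reticulate library that stood apart, at stage 39 against 37, which has no spread of its own. The scutate placodes held 98.7 and 73.8 TPM against 3.3 TPM in the reticulate placode, a log2 difference of -4.33 (SE 0.2, adjusted p = 7.1e-05). At stage 40 the scutate libraries held 18.6 and 19.8 TPM and the reticulate libraries 15.6 and 12.9 TPM, a difference of -0.41 (SE 0.17, adjusted p = 0.1). The test of the stage difference gave 3.92 (SE 0.26, adjusted p = 0.0016). Over all 7 libraries the gene was not called (adjusted p = 0.095).

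ENSGALG00000009058 was higher in reticulate scale at both stages and more so at placode. It stood at 32.1 TPM in the reticulate placode and 7.81 and 7.01 TPM at stage 40, against 0.914 to 1.33 TPM in all 4 scutate libraries. The difference between the stages was -1.81 (SE 0.32, adjusted p = 0.03), and its adjusted p was 0.083 and 0.084 without scutate stage 40 replicate 1 and 2 and 0.052 without reticulate stage 40 replicate 2. ENSGALG00000012952 had 171.1 TPM in the reticulate placode and 49.5 and 47.6 TPM at stage 40, against 264.8 to 344 TPM in the 4 scutate libraries. Its difference was -0.9 at placode (SE 0.16, adjusted p = 0.01) and -2.61 at stage 40 (SE 0.13, adjusted p = 3.9e-05), and these differed by -1.71 (SE 0.21, adjusted p = 0.011).

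**Figure D4:**
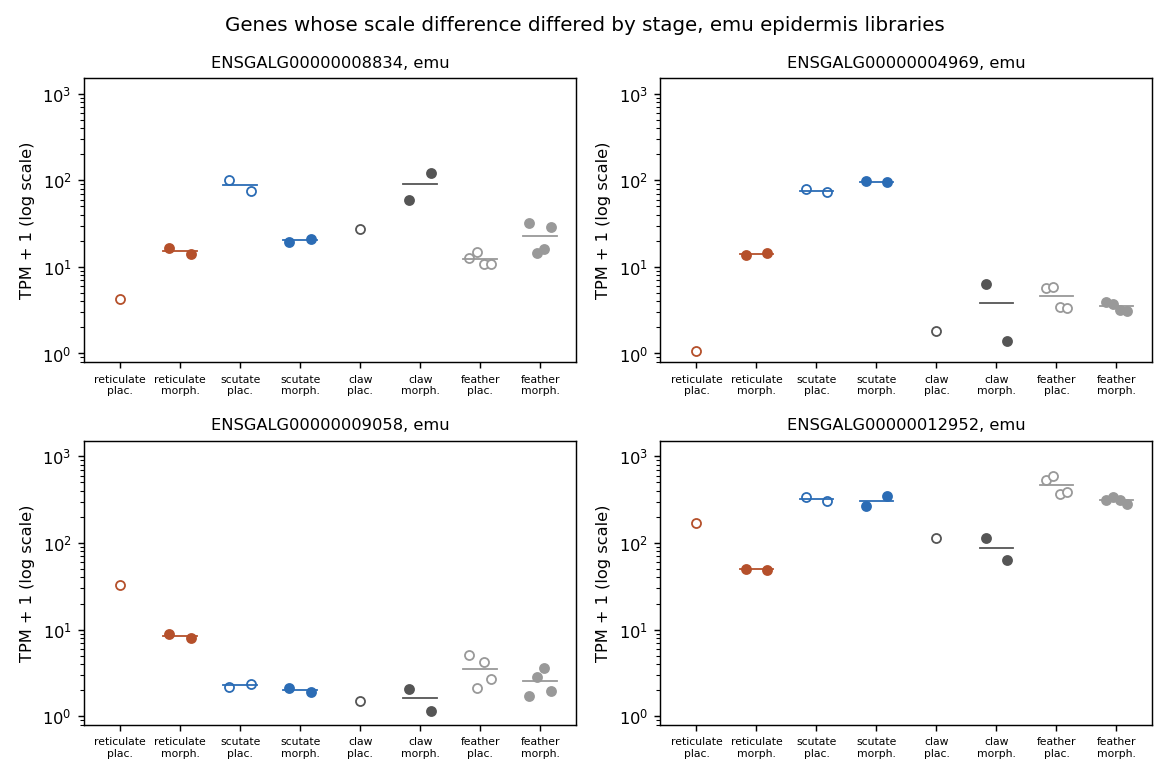
TPM + 1 on a log axis in each emu epidermis library (points) for 4 genes whose scale difference changed with stage, with open points for placode, filled points for morphogenesis and lines at group means of the plotted values. ENSGALG00000008834 and ENSGALG00000004969 are lowest in the reticulate placode, at 3.3 and 0.0661 TPM, while ENSGALG00000009058 is highest there, at 32.1 TPM.

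The same contrast in chicken, from 4 reticulate and 4 scutate libraries of other embryos, gave 245 genes higher in reticulate and 182 higher in scutate scale (2.08% and 1.55% of 11753). The lane number is labelled for 3 of these 8 libraries. Without scutate placode replicate 2, reticulate placode replicate 1 or 2, or scutate stage 40 replicate 2, the chicken count of 427 fell to 186, 203, 207 and 232. Over the 6355 genes tested in both birds the differences correlated at r = 0.257 and rho = 0.278 across genes. Of 582 emu reticulate-high genes tested in chicken, 63.7% had a positive chicken difference, and of 771 scutate-high genes 27.5% did, against 42.5% of all genes. Among genes that differed 2-fold or more in emu, the chicken difference was positive in 71.9% of 192 on the reticulate side and in 36.5% of 156 on the scutate side. Called in both birds were 27 genes higher in reticulate scale and 39 higher in scutate scale. The 27 are 4.64% of the 582 emu genes tested in chicken and 22.9% of the 118 chicken reticulate-high genes measured in emu. The 39 are 5.06% of the 771 and 35.5% of the 110 chicken scutate-high genes measured in emu. Over the 6355 genes, 1.86% were called toward reticulate and 1.73% toward scutate scale in chicken. In the opposite direction, 16 of the 118 chicken reticulate-high genes (13.6%) were called toward scutate scale in emu and 9 of the 110 chicken scutate-high genes (8.18%) toward reticulate scale. Over all genes tested in emu the shares were 9.45% toward reticulate and 12.3% toward scutate scale, so the opposite calls were near the background.

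The chicken values differed by stage and by library. Emu reticulate-high genes had a positive difference in 68.4% at chicken placode (stage 39 against 37) and in 56.9% at chicken stage 40, beside 43.6% and 42.5% of all genes, and for scutate-high genes these shares were 26.2% and 32.8%. At chicken stage 40, reticulate replicate 1 and scutate replicate 1 are labelled with the same lane number, 8. In that pair 46.7% of the emu reticulate-high genes and 50.7% of the scutate-high genes were positive, against 52.4% of all genes, so the reticulate-high genes lay below that background and the scutate-high genes near it. Among genes that differed 2-fold or more in emu the shares in this pair were 40.6% on the reticulate and 56.4% on the scutate side, the reverse of the emu directions. Chicken reticulate replicate 2 of that stage is labelled with lane number 1, as the emu reticulate libraries are, and scutate replicate 2 has no lane label. Between the chicken reticulate replicate 2 and scutate replicate 2 libraries the shares were 60.1%, 25.3% and 36.7%. They were 47.6%, 27% and 34.4% for reticulate replicate 1 minus scutate replicate 2, and 60.3%, 47.5% and 56.6% for reticulate replicate 2 minus scutate replicate 1. At 2-fold or more in emu, the reticulate and scutate side shares were 64.6% and 33.3% for reticulate replicate 2 minus scutate replicate 2. They were 51% and 40.4% for reticulate replicate 1 minus scutate replicate 2, and 60.9% and 46.8% for reticulate replicate 2 minus scutate replicate 1. Unlike in the lane 8 pair, the reticulate side share was the higher in each of these pairs. The part of lane in these shares was not tested.

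Lane was also looked at in the other emu appendages. Of the claw libraries at morphogenesis, 1 carries lane number 1 and the other lane number 8, and the lane 1 minus lane 8 difference had a median of -0.001 over the reticulate-high genes, -0.166 over the scutate-high genes and -0.063 over all genes tested. For femoral feather at morphogenesis, the lane 2 minus lane 7 difference had medians of -0.04, -0.118 and -0.076 over the same sets. Among genes that differed 2-fold or more in emu, the claw medians were -0.058 on the reticulate and -0.322 on the scutate side. The femoral feather medians for these genes were 0.06 and -0.261. The lane 1 claw library and the lane 2 feather library were among those that gave the claw-high and feather-high lists. Equal lane numbers may come from different runs, since the labels give no run name.

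The scale difference itself differed between the birds in 468 of 6355 genes, with a more positive value in emu in 227 (3.57%) and in chicken in 241 (3.79%). Lane and scale type run together on the emu side, and the part of lane in the difference between the birds was not tested. In 361 of the 468 the differences had opposite signs. Selection by a difference between the birds favours opposite signs, and no share over all 6355 genes is set beside this count. It is therefore not read as a result about reversal between the birds. In 25 genes both birds were called in opposite directions, 9 higher in reticulate scale in emu and 16 in chicken. Of the 107 with equal signs, 81 had the larger difference in emu and 26 in chicken. The count was 307 and 285 without emu scutate stage 40 replicate 1 and 2, and 293 without emu reticulate stage 40 replicate 2.

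ENSGALG00000004860 had 108.7 TPM in the emu reticulate placode and 167.9 and 133.7 TPM at stage 40, against 3.01, 3.99, 10.6 and 7.54 TPM in the scutate libraries. The emu log2 difference was 4.2 (SE 0.2, adjusted p = 9.6e-05). In chicken the reticulate libraries averaged 1.78 ± 0.967 TPM and the scutate libraries 1.7 ± 0.667 TPM (SD, n = 4 each), and both ranges overlapped. Emu minus chicken was 4.2 (SE 0.28, adjusted p = 6.5e-06), and 3.92 without the reticulate placode library. In chicken epidermis the level was highest in claw, at 9.4 to 85.9 TPM, and chicken dermis held 3.7 to 74.6 TPM.

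ENSGALG00000005483 was also high in emu reticulate scale, at 76.5 TPM at placode and 75.1 and 69.5 TPM at stage 40, against 2.49 to 4.84 TPM in the scutate libraries. Its 3 reticulate libraries varied little, with a mean of 73.7 ± 3.7 TPM (SD, n = 3). In chicken, reticulate scale held 1.2 to 3 TPM and scutate scale 0.812 to 5.03 TPM, feather held 9 to 22.1 TPM (median 14.3), and dermis of reticulate scale held 38.2 and 50.2 TPM. Emu minus chicken was 4.11 (SE 0.35, adjusted p = 3e-05), and 4.27 without the reticulate placode library.

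ENSGALG00000004596 was called in opposite directions in the birds. Emu scutate libraries held 58.3, 37, 49 and 44.4 TPM against 6.39, 16 and 18.4 TPM in reticulate scale, a difference of -1.91 (SE 0.29, adjusted p = 0.0051). In chicken all 4 reticulate libraries, at 21.9, 16.1, 16.9 and 29.9 TPM, lay above all 4 scutate libraries, at 3.34, 4.66, 4.57 and 6.88 TPM, a difference of 1.91 (SE 0.22, adjusted p = 0.0035). Emu minus chicken was -3.82 (SE 0.38, adjusted p = 0.00013), and -3.31 without the reticulate placode library.

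For ENSGALG00000012893 the emu scutate libraries held 17.3, 23.8, 42.2 and 27.2 TPM and the reticulate libraries 0.716, 12.2 and 6.7 TPM, a difference of -2.53 (SE 0.42, adjusted p = 0.0072). In chicken, reticulate scale held 6.04, 0.887, 4.89 and 4.56 TPM and scutate scale 0.28 to 1.21 TPM, a difference of 1.43 that did not pass the threshold (SE 0.41, adjusted p = 0.097). It is on the dermis-enriched list, with 96.9 to 879 TPM in the 10 chicken dermis libraries. Emu minus chicken was -3.96 (SE 0.64, adjusted p = 0.0032), -3.22 without the reticulate placode library and -2.37 with a pseudocount of 5.

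**Figure D5:**
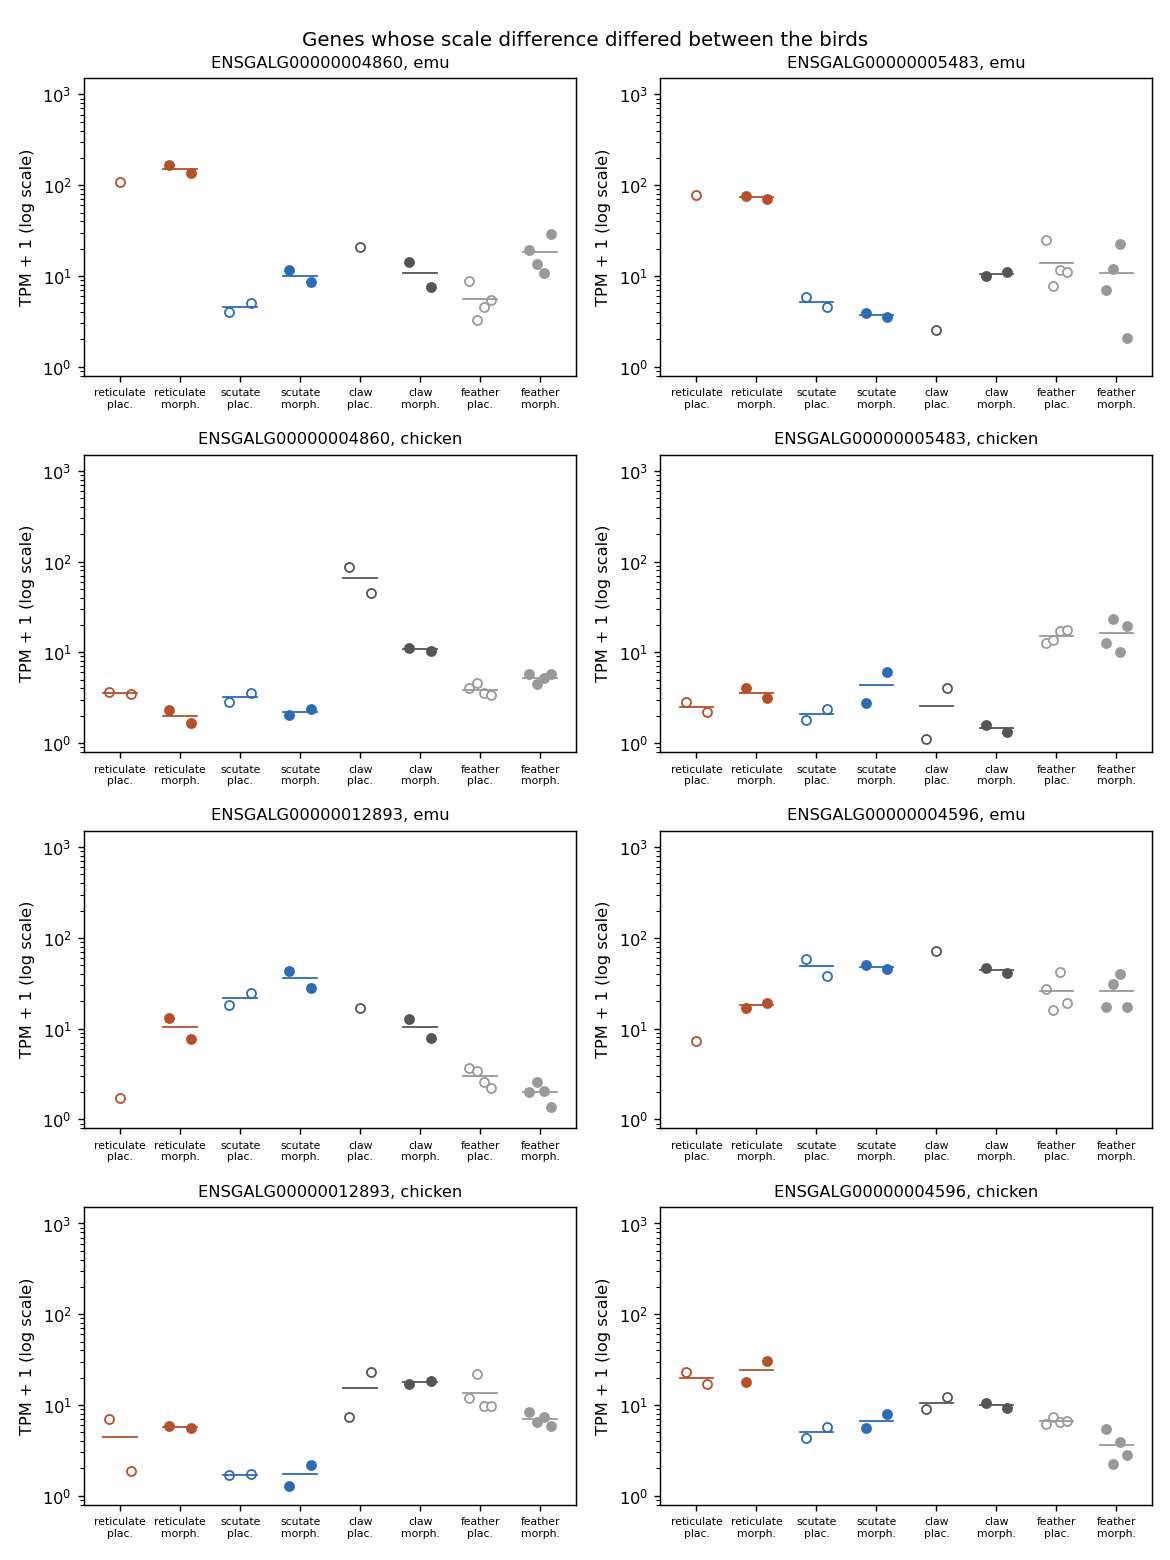
TPM + 1 on a log axis in each emu and chicken epidermis library (points) for 4 genes whose reticulate minus scutate difference differed between the birds, with open points for placode, filled points for morphogenesis and lines at group means of the plotted values. ENSGALG00000004860 and ENSGALG00000005483 are higher in reticulate than in scutate scale in emu, while the ranges of the scales overlap in chicken. ENSGALG00000004596 is higher in scutate scale in emu and in reticulate scale in chicken.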

How the data were processed

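Per the labels' protocols, dispase (10 mg/mL, for 13 h at 4 °C) freed the epidermis, and polyA-enriched, strand-specific libraries were made. Tools listed in the submitters' processing notes, without roles, are HTSeq 0.5.3p9, TopHat2 2.0.6 and CASAVA; for build and annotation the sources used here give nothing. The authors deposited TPM values, emu columns on chicken identifiers with a scaling that is not stated, and levels are therefore not compared between species. All per-sample columns matched a sample.

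A gene was tested at 1 TPM or more in at least 2 of the libraries (of each bird in the joint fit). Log2(TPM + 1) values were fitted with limma 3.58.1 (R 4.3.3) and robust eBayes with a trend, with p-values adjusted by Benjamini-Hochberg over all genes tested, and the fits were tested on simulated data. Stage contrasts used 4 group means. The design text calls the replicates biological; p-values measure the spread between these libraries. TPM keeps no depth, so no counting interval is given.

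The comparison, lists and rules were chosen with earlier results of these data known. Symbols were missing, so the marker and pathway lists of symbols were not applied, and lists from other libraries took their place. Named genes are the largest called differences each way at 5 TPM or more with separated scales, at most 2 identifiers each way per comparison.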

Additional observations from a re-analysis of the deposited data

Results flagged for a closer look

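The scale difference differed between placode and stage 40 by a test of that difference in 273 genes. The named ones were ENSGALG00000008834 (3.92), ENSGALG00000004969 (3.38), ENSGALG00000009058 (-1.81) and ENSGALG00000012952 (-1.71), each a stage 40 minus placode difference on the log2(TPM + 1) scale. Each of these values includes the 1 reticulate placode library. The naming rule left out genes whose scale difference had opposite signs at the stages. On the negative side 34 genes differed 4-fold or more, and none of them is named.

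The scale difference differed between emu and chicken by a test of that difference in 468 genes. The named ones were ENSGALG00000004860 (4.2), ENSGALG00000005483 (4.11), ENSGALG00000012893 (-3.96) and ENSGALG00000004596 (-3.82), each emu minus chicken on the same scale. In emu lane and scale type cannot be told apart, and the part of lane in these values was not tested. No emu group held 4 libraries of 1 scale and stage, so single libraries were not tested as outliers.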

How the results depend on the processing

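The count of 1509 genes between the scales lay between 1290 and 1926 under other pseudocounts, filters, scalings, no stage term, plain shrinkage or all 18 emu libraries, and between 768 and 2003 when 1 library was left out. Leaving out 1 library gave 853 to 2049 calls at stage 40, 603 to 978 at placode, 49 to 263 for the difference by stage, 285 to 462 for emu minus chicken and 186 to 487 for chicken alone. Without scutate stage 40 replicate 1 and 2 and reticulate stage 40 replicate 1 and 2, 785, 768, 914 and 800 genes were called between the scales. No gene called in a main fit changed sign under a setting run for that fit. Of 180 values of named genes under other settings 176 stayed past the threshold and 4, of ENSGALG00000009058, did not, with adjusted p of 0.03 in the full fit and 0.052 to 0.084 there. The median of the chicken dermis list, -0.018, became 0.034 after median-of-ratios rescaling and 0.021 after quantile normalization. For all genes tested the median was -0.049, 0.001 and -0.031 in the same order. No paired analysis was possible because the 7 libraries carry 7 different specimen numbers. Fewer libraries give a less certain spread; depth is unknown, so its limit cannot be given. The alternatives for placode, for chicken alone and for the list medians, and the set called in every fit, were chosen after seeing the data.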

Other observations

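Called genes were spread over the range of levels. Of 1638 genes averaging under 10 TPM over the 7 libraries, 9.28% were called toward reticulate and 11.4% toward scutate scale; of 4364 genes at 10 to 100 TPM, 9.03% and 11.1%; and of 941 genes over 100 TPM, 11.7% and 19.1%. At 2-fold or more the most abundant class held 31 genes higher in reticulate and 11 in scutate scale, while the least abundant held 86 and 109. Separate in all 7 libraries, with every scutate value under 1 TPM and every reticulate value at 5 TPM or more, were 2 genes, and 0 showed the reverse. The reticulate placode library held the highest value of the 7 in 1650 of 6943 genes (23.8%), against 10.8% to 15.1% in each other library.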
